A study of Mus musculus with 4 samples.

Results

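The core pluripotency factors described here are 6 genes, chosen by name for what they are known to do in ES cells. The rule uses no measured value, but it was written with earlier results of these data known. They are Pou5f1 (which encodes Oct4), Sox2, Nanog, Sall4, Lin28a and Utf1, out of 56748 genes listed in the count table, and all 6 passed the filter on low counts. Their RNA was measured by RNA-seq in the mouse ES cell line E14. Wild-type cells gave 2 libraries, named WT1 and WT2, and 2 Npac knockout lines gave 1 library each, named KO1 and KO2. The KO lines were made with CRISPR/Cas9 and picked as colonies, and all cells were grown on gelatin, without feeders, in medium with serum and LIF. The labels do not say whether the WT libraries came from separate cultures, so p-values measure only the spread between these samples, which may be technical. The comparison asks how the RNA of the factors that hold ES cells in the pluripotent state differs between Npac KO and WT cells.

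Oct4, Sox2 and Nanog are transcription factors that bind many of the same enhancers in ES cells, including those of their own genes. Oct4 and Sox2 bind side by side on a composite DNA element made of an octamer core and a Sox core. Sall4 is a zinc finger transcription factor found at many of the same sites, Lin28a is an RNA-binding protein that blocks the maturation of the let-7 microRNAs, and Utf1 is a chromatin-associated protein of undifferentiated cells.

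The total count lay between 15850805 and 16965120 reads per library, and the 6 factors together took 0.298% and 0.250% of the reads in the WT and 0.234% and 0.227% in the KO libraries. Npac, listed as Glyr1, had 3961 and 3115 reads in WT1 and WT2 and 744 and 888 reads in KO1 and KO2, and its log2 fold change, KO over WT, was -2.14 (edgeR, adjusted p = 0.00174). All adjusted p-values below come from edgeR's quasi-likelihood test, adjusted over all genes by the Benjamini-Hochberg method. Among 12 other markers of ES cells all were detected, and their summed level was 5122 to 6723 CPM (read counts scaled to a common library total, with TMM factors) in WT and 4442 to 4980 CPM in KO libraries. The WT libraries differed more from each other than the KO libraries did. Among the 2350 genes of at least 100 CPM the median absolute log2 difference was 0.26 between WT1 and WT2 and 0.15 between KO1 and KO2.

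None of the 6 factors was called different between Npac KO and WT cells, where a call required both a 1.5-fold difference and an adjusted p below 0.05. The same rule called 21.7% of the 18157 genes tested. Pou5f1 and Sox2 were lower in both KO libraries than in both WT libraries, Lin28a and Utf1 were higher, and Nanog and Sall4 overlapped, but no difference passed the test. Non-overlapping libraries of this kind were found for 65.7% of all genes tested, so 4 of 6 is near the background. At an unadjusted p under 0.05 with the same fold, 1 of the 6 factors was called, Lin28a, beside 33.9% of all genes. DESeq2 called 0 of the 6, beside 2033 genes higher and 2098 lower among all genes. It gave 2 of the 6 an unadjusted p under 0.05, for which the share over all genes is not given here. The median log2 fold change was -0.15 over the 6 factors and 0.00 over all genes tested, and the median absolute log2 fold change over all genes was 0.55. In bulk RNA, fewer cells that express a factor and less of its RNA per cell cannot be told apart.

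**Figure D1:**
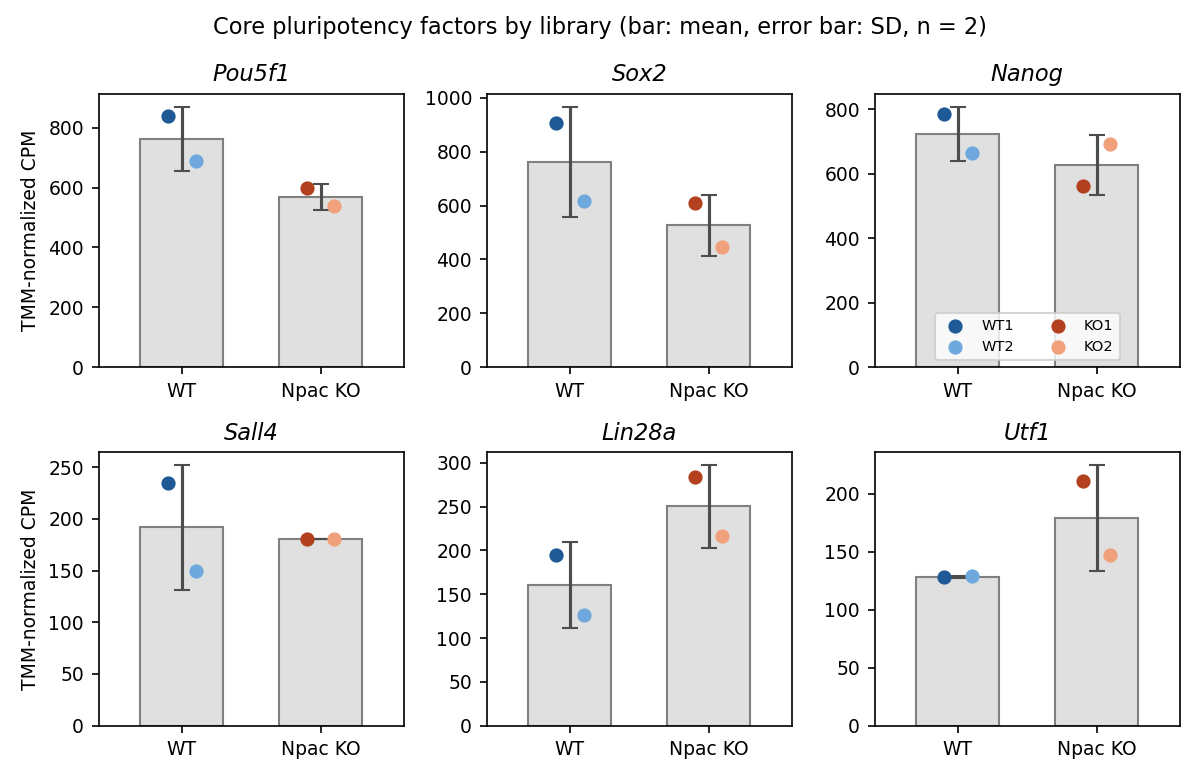
TMM-normalized CPM of the 6 factors (vertical axes, from 0) in WT and Npac KO cells, with each library as a point, the mean as a bar and the SD as an error bar (n = 2 libraries). The KO points lie below the WT points for Pou5f1 and Sox2, above them for Lin28a and Utf1, and between them for Sall4, while for Nanog KO1 is the lowest point and KO2 lies between the WT points.

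Pou5f1 encodes Oct4, the POU domain factor without which neither the inner cell mass nor ES cells keep their identity. The files list it as ENSMUSG00000024406, with 5 exons in its main transcript, on chromosome 17 from 35816915 to 35821669 on the plus strand. Positions of genes are given as deposited, with no build, since they do not match GRCm38. It had 12823 and 12022 reads in the WT and 9325 and 9315 in the KO libraries, which is 840, 688, 600 and 538 CPM. Both KO values lay under both WT values, and the mean was 764 ± 107 CPM (SD, n = 2) in WT and 569 ± 43.7 CPM (SD, n = 2) in KO cells. The log2 fold change was -0.42 (standard error 0.20, 95% interval -0.88 to 0.03), with an adjusted p of 0.157 from edgeR's quasi-likelihood test. In linear terms the interval runs from 0.543 to 1.02 times the WT level, so no change is inside it and a fall below 0.543 of the WT level is outside. Mouse carries processed pseudogenes that resemble Pou5f1. Of the 7 listed, 1 had any reads, at most 7 in a library, a small number beside the reads on Pou5f1, and how reads that fit several copies were counted is not given in the sources used here.

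Sox2 is the HMG-box partner of Oct4 on composite elements, and its gene (ENSMUSG00000074637) has a single exon, on chromosome 3 from 34704554 to 34706610 on the plus strand. Its level was 908 CPM in WT1, 617 CPM in WT2, 608 CPM in KO1 and 448 CPM in KO2. WT2 and KO1 were almost equal, and WT1 stood alone at the top. The mean was 762 ± 206 CPM (SD, n = 2) in WT and 528 ± 113 CPM (SD, n = 2) in KO cells. Between genotypes the log2 fold change was -0.53 (standard error 0.25, 95% interval -1.12 to 0.06, adjusted p = 0.169 by edgeR's quasi-likelihood test), while WT1 and WT2 differed from each other by 0.56 on the same scale. Without WT2 the log2 fold change of Sox2 was -0.79, and without WT1 it was -0.25.

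Nanog encodes a homeodomain factor whose level varies between single ES cells, and the gene (ENSMUSG00000012396) lies on chromosome 6 from 122684448 to 122691592 on the plus strand. It was at 784 CPM in WT1, 666 CPM in WT2, 561 CPM in KO1 and 693 CPM in KO2. The genotypes overlapped, since KO2 was above WT2, and KO1 was the lowest of the libraries. This gave a log2 fold change of -0.21 (standard error 0.20, 95% interval -0.68 to 0.26, adjusted p = 0.491 by edgeR's quasi-likelihood test). The interval runs from 0.624 to 1.20 times the WT level. The 2 listed Nanog pseudogenes had at most 1 read in a library.

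The proximal promoters of the triad are shown because Oct4 and Sox2 bind the composite element named above. They are the 250 bases before the annotated start, 5′ to 3′ on the strand of the gene, from RefSeq on GRCm38.p6. Where a gene has several such starts the most upstream was used, and another start would give another window. Capitals mark the octamer core ATGCAAA and the Sox core CATTGT, searched on both strands. The Pou5f1 window is chr17:35505782-35506031, the Sox2 window chr3:34649745-34649994 and the Nanog window chr6:122707239-122707488, all on the plus strand. In GENCODE M21 the genes begin at 35506018 for Pou5f1, 34650405 for Sox2 and 122707489 for Nanog, so only the Nanog window ends at that start.
Pou5f1: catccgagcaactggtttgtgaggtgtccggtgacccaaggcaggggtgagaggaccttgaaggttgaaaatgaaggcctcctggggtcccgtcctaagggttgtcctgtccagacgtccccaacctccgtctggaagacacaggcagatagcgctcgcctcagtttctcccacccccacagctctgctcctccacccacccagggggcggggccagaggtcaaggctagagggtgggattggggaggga
Sox2: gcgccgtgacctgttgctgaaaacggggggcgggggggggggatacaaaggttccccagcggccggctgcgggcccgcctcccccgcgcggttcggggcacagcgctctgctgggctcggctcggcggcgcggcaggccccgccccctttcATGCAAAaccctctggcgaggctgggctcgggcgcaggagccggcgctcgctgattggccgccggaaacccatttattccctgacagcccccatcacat
Nanog: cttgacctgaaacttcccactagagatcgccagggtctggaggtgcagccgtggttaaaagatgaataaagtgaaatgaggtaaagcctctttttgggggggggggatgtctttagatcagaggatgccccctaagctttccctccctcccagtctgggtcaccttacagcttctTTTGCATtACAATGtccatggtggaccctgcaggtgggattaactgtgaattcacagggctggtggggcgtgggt
The Nanog window held both cores on the opposite strand with 1 base between them, at bases 176 to 189 counted from the 5′ end, which ends 62 bases from the start. That spacing was found in 1 of 27025 RefSeq promoter windows, the one of Nanog itself. The Sox2 window held an octamer core alone, at bases 152 to 158, and the Pou5f1 window held neither. An octamer core was in 4.07% and a Sox core in 10.9% of all windows, counts that include the composite. Of the other factors with a window in the table, Lin28a had a Sox core and Utf1 had neither. A match in a window describes the letters only.

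Sall4 is needed for ES cell proliferation and binds with Oct4 and Nanog at many enhancers. The gene (ENSMUSG00000027547) lies on chromosome 2 from 168590252 to 168609863 on the minus strand. Its level was 235 CPM in WT1, 149 CPM in WT2, 180 CPM in KO1 and 181 CPM in KO2. The KO libraries were nearly the same and lay between the WT libraries, which differed by 0.65 on the log2 scale. On the log2 scale KO minus WT was -0.09 (standard error 0.24, 95% interval -0.64 to 0.46, adjusted p = 0.818 by edgeR's quasi-likelihood test). Its direction rests on 1 WT library, since the log2 fold change was 0.25 without WT1 and -0.38 without WT2, and neither was called.

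Lin28a binds let-7 precursors and recruits the enzymes that add uridines to them, so that mature let-7 stays low in ES cells. The gene (ENSMUSG00000050966) lies on chromosome 4 from 133730641 to 133746152 on the minus strand. It had 2976 and 2204 reads in the WT and 4408 and 3754 in the KO libraries, which is 195, 126, 284 and 217 CPM. The genotypes did not overlap, and KO2 was the KO library nearest to WT1. The mean was 161 ± 48.6 CPM (SD, n = 2) in WT and 250 ± 47.2 CPM (SD, n = 2) in KO cells. The log2 fold change of 0.64 (standard error 0.25, 95% interval 0.05 to 1.23) had an unadjusted p of 0.0364 and an adjusted p of 0.108 in edgeR's quasi-likelihood test. Lin28a was called in 3 of 16 other fits. It was called higher with no filter on low counts (0.65, adjusted p = 0.0197 by edgeR), with a replicate block, and without WT1. The log2 fold change was 0.96 without WT1 and 0.36 without WT2, fits in which a group has 1 library. WT1 and WT2 differed by 0.63, about as much as KO from WT.

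Utf1 is among the genes that are switched off early when ES cells differentiate. It is a short gene (ENSMUSG00000047751) of 2 exons on chromosome 7 from 139523702 to 139525025 on the plus strand. Its level was 128 CPM in WT1, 129 CPM in WT2, 212 CPM in KO1 and 147 CPM in KO2. The WT libraries were nearly equal, and the KO libraries were higher but apart from each other. For Utf1 the log2 fold change was 0.48 (standard error 0.22, 95% interval -0.02 to 0.98, adjusted p = 0.146 by edgeR's quasi-likelihood test), and the difference between KO1 and KO2 was 0.53.

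**Figure D2:**
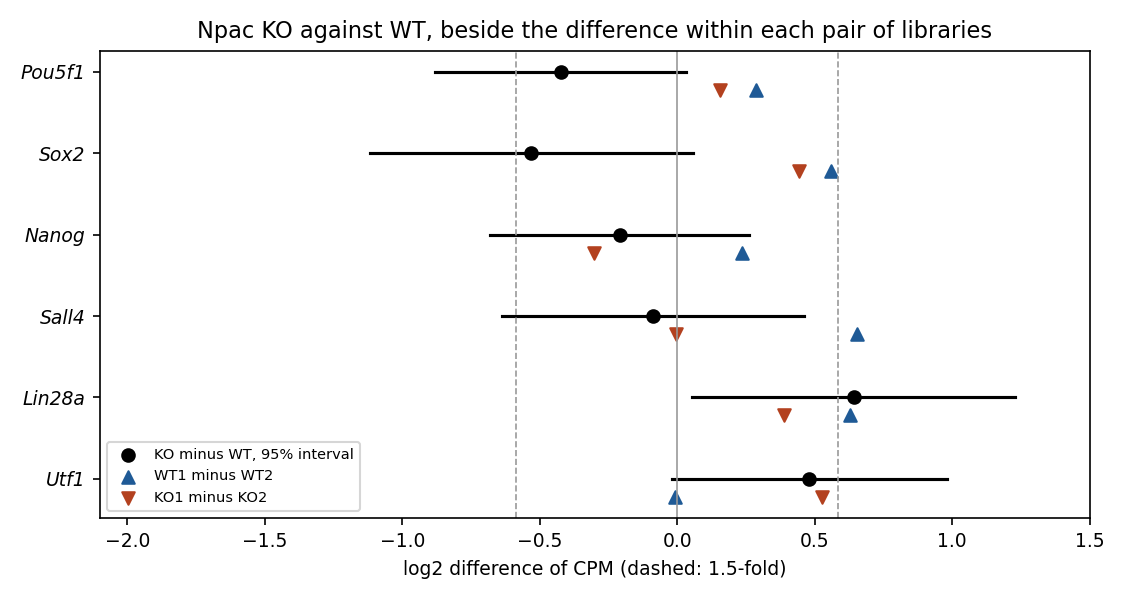
Log2 fold change of each factor between Npac KO and WT cells with its 95% interval (black), beside the log2 difference between WT1 and WT2 (blue triangles) and between KO1 and KO2 (red triangles). The interval holds 0 for 5 of the 6 factors, and for 3 of them (Sox2, Nanog and Sall4) the WT libraries differed by at least as much as KO from WT.

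In the WT pair 5 of the factors were higher in WT1 than in WT2, and Utf1 was the exception at a log2 difference of -0.01. The absolute difference within the WT pair was 0.24 for Nanog, 0.29 for Pou5f1, 0.56 for Sox2, 0.63 for Lin28a and 0.65 for Sall4. Sox2, Lin28a and Sall4 were therefore spread more than the median of abundant genes in the WT pair, and Nanog and Pou5f1 were close to it. The log2 fold change kept its sign for 5 of the 6 factors in each of 16 other fits, and Sall4 changed sign without WT1. Without WT2 the log2 fold change was -0.56 for Pou5f1 and 0.48 for Utf1, in opposite directions and under the 1.5-fold limit.

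**Figure D3:**
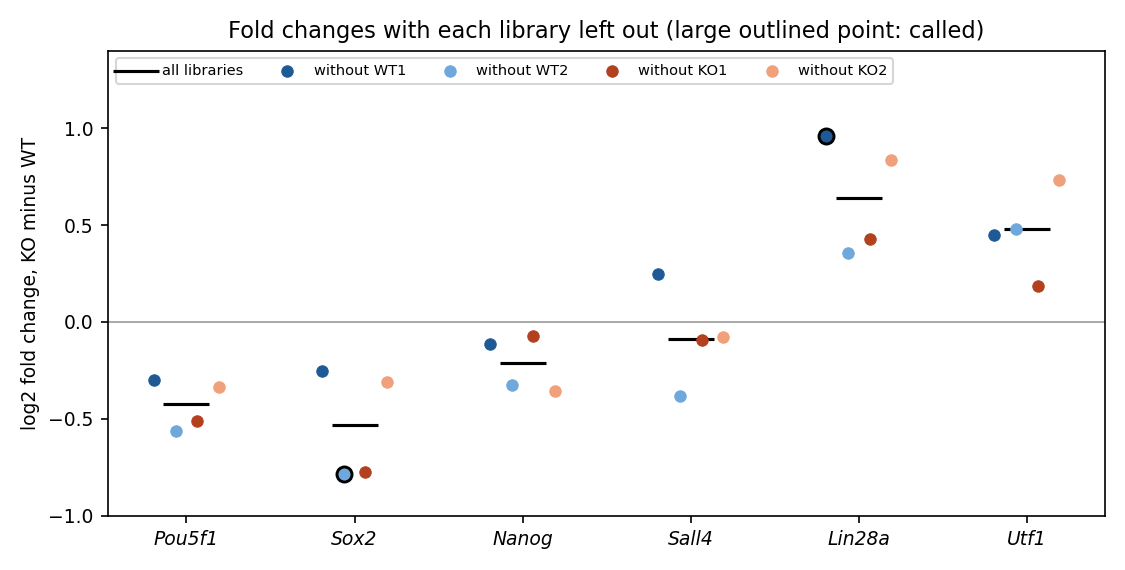
Log2 fold change of each factor with all libraries (black bars) and with each library left out (points). Large outlined points are calls, of Lin28a without WT1 and of Sox2 without WT2, and Sall4 lies on both sides of 0.

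Taken apart, the KO lines share the WT libraries, and the spread came from the WT pair. With KO1 alone the log2 fold changes were -0.35 for Pou5f1, -0.33 for Sox2, -0.37 for Nanog, -0.09 for Sall4, 0.82 for Lin28a and 0.72 for Utf1. With KO2 alone they were -0.51, -0.77, -0.07, -0.09, 0.43 and 0.19, in the same order. The factor furthest below WT was Sox2 in KO2, and the one furthest above was Lin28a in KO1. Neither edgeR nor DESeq2 called a factor in either line, where edgeR called 7.17% of all genes with KO1 alone and 5.44% with KO2 alone. In edgeR's fit across all genes Lin28a and Utf1 in KO1 and Sox2 in KO2 had an unadjusted p under 0.05, with adjusted p = 0.180, 0.189 and 0.238. The share of all genes under that unadjusted p in a single line is not given here. The difference between the lines themselves, which have 1 library each, was not called for any of the 6 factors, and none of them had an unadjusted p under 0.05.

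Levels of different genes were compared per length, as FPKM. In WT cells Sox2 had the highest level at 368 ± 99.7 FPKM (SD, n = 2), followed by Pou5f1 at 337 ± 47.7 and Nanog at 321 ± 37.5 FPKM. In KO cells Nanog was at 276 ± 38.1, Sox2 at 254 ± 57.1 and Pou5f1 at 251 ± 21.8 FPKM. The ranges given by these SDs overlapped in both genotypes, and no test was run between genes. Within a library, Pou5f1 was above Nanog in WT1 (371 and 347 FPKM) and in WT2 (303 and 294 FPKM). In KO2 it was below Nanog (235 and 303 FPKM). Utf1 came next, at 104 ± 0.37 FPKM in WT and 145 ± 38.3 FPKM in KO cells. Lin28a and Sall4 were lowest, at 39.9 ± 12.1 and 34.4 ± 10.9 FPKM in WT cells. The ranges given by these SDs overlapped, but Lin28a was above Sall4 within each WT library. The values were 48.4 and 42.1 FPKM in WT1 and 31.3 and 26.7 FPKM in WT2. In KO cells they were at 62.0 ± 12.3 and 32.2 ± 0.28 FPKM, and both Lin28a libraries were above both Sall4 libraries. Among the 1525 genes annotated with a transcription factor family in the deposited table, Pou5f1, Sox2 and Nanog ranked between 2 and 5 in every library. Lin28a, which the table lists for its cold shock domain, ranked 41 and 61 in the WT and 21 and 28 in the KO libraries, and Sall4 ranked between 53 and 72.

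The ratio of each factor to Pou5f1 in the same library does not depend on the scaling of that library. The Lin28a to Pou5f1 ratio of FPKM was 0.131, 0.103, 0.266 and 0.227 in WT1, WT2, KO1 and KO2, a log2 difference of 1.08. The Utf1 to Pou5f1 ratio was 0.279, 0.343, 0.646 and 0.5 in the same order, a log2 difference of 0.88. Both ratios, and that of Sall4 at a log2 difference of 0.37, were higher in both KO libraries than in both WT libraries. Pou5f1 itself was lower in both KO libraries (log2 fold change -0.42), which raises ratios to it there. Sall4 by itself was at -0.09, with overlapping libraries. The share of all genes with such a ratio to Pou5f1 is not given here. The Sox2 and Nanog ratios to Pou5f1 overlapped, with log2 differences of -0.10 and 0.21. With each library left out in turn the log2 difference ran from 0.91 to 1.25 for Lin28a and from 0.69 to 1.06 for Utf1. It ran from 0.19 (without WT2) to 0.55 (without WT1) for Sall4, from -0.02 (without KO2) to 0.44 (without KO1) for Nanog, and from -0.24 to 0.04 for Sox2. For the 3 ratios without overlap the two-sided exact permutation test gave p = 0.333, the smallest p that 2 against 2 libraries allow (adjusted 0.556 over 5 ratios), so this design cannot reach 0.05.

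**Figure D4:**
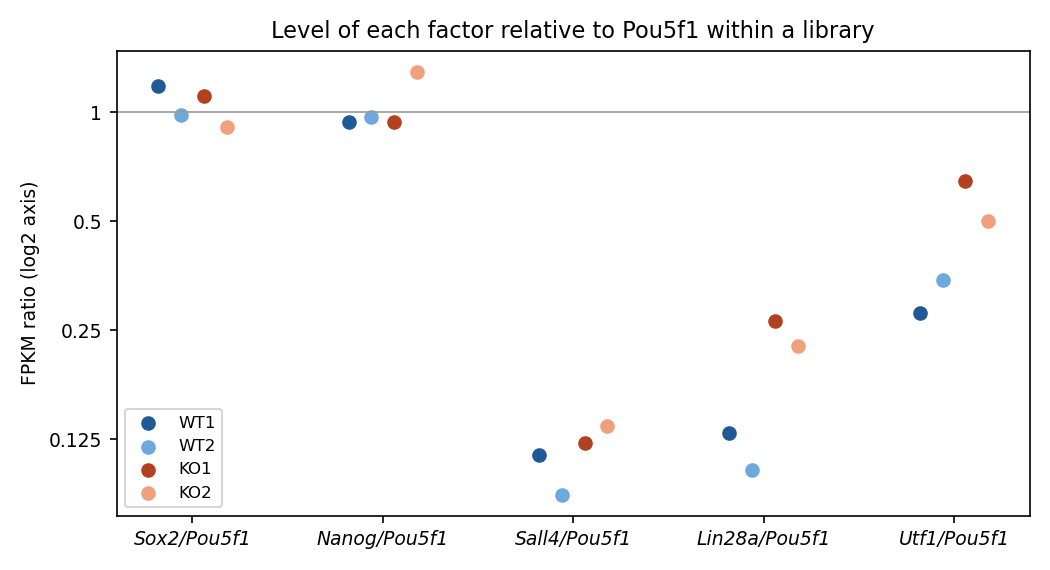
FPKM of each factor divided by that of Pou5f1 in the same library, on a log2 axis. Sox2 and Nanog lie near 1 in all libraries, and the KO points lie above the WT points for Sall4, Lin28a and Utf1.

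Genes close to the factors in the genome were called about as often as genes overall. Within 50 kb of the factors, or overlapping them, 20 genes were tested, of which 2 were called higher and 3 lower, 25% beside 21.7% of all genes. Noncoding models on the opposite strand overlap Pou5f1, Sall4 and Lin28a, and had at most 16 reads in a library. Sox2ot, a long noncoding RNA whose span holds Sox2 on the same strand, had 182, 169, 31 and 27 reads in WT1, WT2, KO1 and KO2. It fell by 2.60 on the log2 scale (standard error 0.38, adjusted p = 0.00513 by edgeR). None of its GENCODE M21 exons covers the Sox2 exon, and its reads were few beside the 7747 to 13865 on Sox2. Gm3143, a noncoding RNA 47179 bases from Sox2, rose from 3 and 5 reads to 18 and 23 reads (log2 fold change 2.32, adjusted p = 0.0336 by edgeR). Slc2a3, which encodes a glucose transporter and lies 13176 bases from Nanog, fell from 2252 and 1613 CPM to 720 and 756 CPM (log2 fold change -1.39, adjusted p = 0.00706 by edgeR). Near Lin28a, Hmgn2, a nucleosome-binding protein gene, rose from 244 and 163 reads to 795 and 836 reads (log2 fold change 1.98, adjusted p = 0.00484 by edgeR). Crybg2, also near Lin28a and named after its value was seen, fell (log2 fold change -1.28, adjusted p = 0.0117 by edgeR). The tested neighbours of Pou5f1, Sall4 and Utf1 were not called.

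Genes on chromosomes 8 and 11 were higher as a group in both KO libraries, with median log2 differences from the WT mean of 0.45 to 0.49. None of the factors lies there, and their own chromosomes had medians between -0.15 and 0.00. With the chromosome medians removed the log2 fold changes were -0.34 for Pou5f1, -0.43 for Sox2, -0.10 for Nanog, -0.05 for Sall4, 0.66 for Lin28a and 0.50 for Utf1, and none was called.

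Genes of proteins that bind or serve Oct4, Sox2 and Nanog came next. This list and those below were written with earlier results of these data known, so their shares of called genes are descriptive. Of 22 cofactor genes, 3 were called higher and 3 lower, 27.3% beside 21.7% of all genes, with a median log2 fold change of 0.17 beside 0.00 over all genes. DESeq2 also called 3 and 3. An unadjusted p with the same fold gave 5 higher and 3 lower, beside 33.9% of all genes. Hdac1, a deacetylase of the NuRD complex, rose from 174 and 165 CPM to 497 and 425 CPM (log2 fold change 1.44, adjusted p = 0.00337 by edgeR). Nr0b1, which encodes the Oct4-binding repressor Dax1, fell by 2.48 on the log2 scale (adjusted p = 0.0133 by edgeR), from widely spread WT values of 285 and 89.2 CPM to 39.2 and 27.8 CPM. Ctnnb1, the beta-catenin gene, fell by 1.04 and Stat3, the LIF effector, fell by 0.74 on the log2 scale. Stat3 lies on chromosome 11, and it was at -1.20 with the chromosome median removed. The other genes called higher, named after their values were seen, were Parp1 (0.69) and Cetn2 (0.98), a subunit of the XPC complex that acts with Oct4 and Sox2.

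Of 12 genes with a known Oct4-Sox2 enhancer, 1 was called higher and 1 lower, 16.7% beside 21.7% of all genes, and the median log2 fold change was -0.02. DESeq2 called 1 higher and 2 lower. An unadjusted p with the same fold gave 1 higher and 3 lower, beside 33.9% of all genes. Zfp42, which encodes Rex1, fell from 945 and 697 CPM to 134 and 129 CPM (log2 fold change -2.64, adjusted p = 0.000704 by edgeR). Mycn rose by 1.41 on the log2 scale (adjusted p = 0.00697 by edgeR). The remaining 10, among them Fgf4 and Tdgf1, were not called.

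Of 14 tested regulators that act on Pou5f1, Sox2 or Nanog, 5 were called lower and 2 higher, 50% beside 21.7% of all genes, and the median log2 fold change was -0.38. DESeq2 called 7 lower and 2 higher. An unadjusted p with the same fold gave 7 lower and 3 higher, beside 33.9% of all genes. Klf5 fell from 1552 and 770 CPM to 100 and 118 CPM (log2 fold change -3.41, adjusted p = 0.00142 by edgeR), and Tbx3 fell from 498 and 299 CPM to 58.7 and 79.7 CPM (-2.53, adjusted p = 0.00229 by edgeR). Klf4 fell by 1.32 and Tcf7l1, a repressor of Nanog, fell by 1.66 on the log2 scale. Klf4, Klf5 and Tbx3 activate the core genes, while Tcf7l1 opposes them, so the genes that fell have opposite known roles. Foxd3, also lower (-1.79), and Klf2 (0.97) and Trp53 (0.91), both higher, are named after their values were seen. Klf2 lies on chromosome 8 and Trp53 on chromosome 11, and with chromosome medians removed they were at 0.48 and 0.44 and no longer called.

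The Lin28 and let-7 pathway held 3 genes called higher and 0 lower of 16 tested, 18.8% beside 21.7% of all genes, with a median log2 fold change of 0.20. At an unadjusted p with the same fold, edgeR called 4 of them higher and 0 lower, beside 33.9% of all genes, and DESeq2 called 3 and 0. Hmga1, a chromatin protein gene of the class that let-7 represses, rose from 213 and 158 CPM to 591 and 466 CPM (log2 fold change 1.51, adjusted p = 0.00544 by edgeR). Igf2bp1, an RNA-binding protein gene also targeted by let-7, rose by 1.21 (adjusted p = 0.00794 by edgeR) and by 0.75 with the median of chromosome 11 removed. Xpo5, the exporter of microRNA precursors, rose by 0.86 (adjusted p = 0.0201 by edgeR). Hmga2 (log2 fold change 0.26), Igf2bp2 (0.28) and Igf2bp3 (-0.69), of the same families, were not called, and nor was Trim71 (-0.35). Lin28b, the paralogue of Lin28a, and the uridylating enzymes Tut4 and Tut7 were not called. Mature let-7 was not analysed here.

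Among the paralogues of the factors, 3 of 12 tested were called higher and 3 lower, 50% beside 21.7% of all genes, and the median log2 fold change was 0.61. DESeq2 also called 3 and 3. An unadjusted p with the same fold gave 5 higher and 5 lower, beside 33.9% of all genes. Pou6f1 and Pou2f2 rose, and Sox1 (-2.34) and Sall3 (-2.49) fell. Named after their values were seen, Pou3f1 fell (-0.88) and Pou3f2 was called higher, on 0 and 2 reads in the WT libraries beside 23 and 13 reads in the KO libraries. Sall1, on chromosome 8, was not called at -1.52 but was called lower (adjusted p = 0.0431 by edgeR) with the chromosome medians removed.

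**Figure D5:**
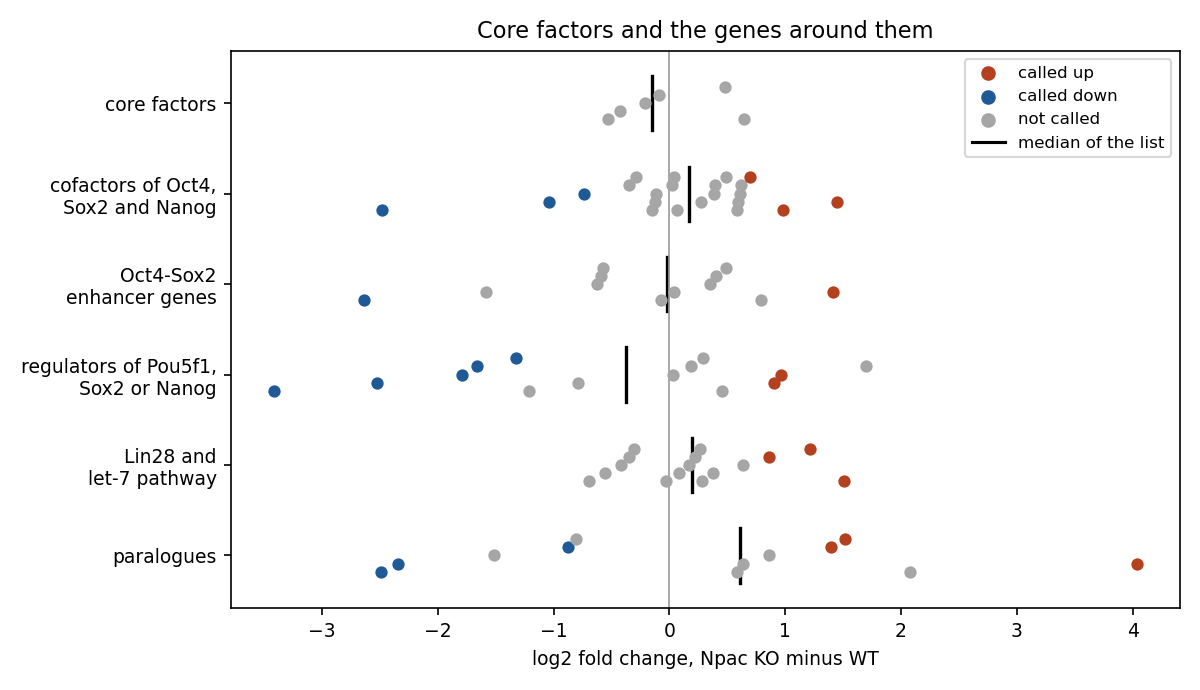
Log2 fold change between Npac KO and WT cells (horizontal axis) of the core factors and of the genes around them, 1 point per gene tested, with the median of each list as a black line. The core factors lie between -0.53 and 0.64 with none called, while the lists around them reach from -3.41 to 4.04 and hold calls.

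Markers of other cell types were examined beside these values, and their part in them was not tested. The share called was 25% of trophoblast, 33.3% of primitive endoderm, 25% of neuroectoderm and 0% of mesoderm markers. It was 33.3% of fibroblast markers and 33.3% of ES cell markers outside the factors, beside 21.7% of all genes. At an unadjusted p with the same fold, 33.9% of all genes were called. Trophoblast markers summed to 110 to 123 CPM in WT and 254 to 277 CPM in KO libraries. Tfap2c and Krt18 were called higher and 0 lower of 8 tested, as with DESeq2 and at an unadjusted p. Tfap2c alone gave 50.7 and 31.7 CPM in WT and 155 and 134 CPM in KO libraries. Eomes was not called (log2 fold change -0.16), and Cdx2 had at most 16 reads in a library. Primitive endoderm markers summed to 647 to 805 CPM in WT and 589 to 610 CPM in KO libraries, with Sparc called higher and Sox7 and Lama1 lower of 9 tested, and Foxa2 had at most 2 reads. Neuroectoderm markers summed to 333 to 567 CPM in WT and 380 to 390 CPM in KO libraries, with Neurod1 called higher and Sox1 lower of 8 tested. Rest, not called, made up most of each sum, at 468 and 244 CPM in WT and 292 and 266 CPM in KO libraries. Mesoderm markers summed to 19.7 to 33.4 CPM in WT and 27.7 to 35.6 CPM in KO libraries, and 0 of 10 were called by edgeR, by DESeq2 or at an unadjusted p. Fibroblast markers summed to 107 to 130 CPM in WT and 66.8 to 83.0 CPM in KO libraries, with Col1a1 called higher and Fbn1 lower of 6 tested, and Col3a1 and Dcn had 0 reads in every library. Sparc and Col1a1 lie on chromosome 11, and with its median removed they were at 0.19 and 0.82 on the log2 scale and not called, while the fibroblast marker Col1a2 (2.06, adjusted p = 0.0515 by edgeR) became called at 2.17 (adjusted p = 0.0489 by edgeR). Of the 12 ES cell markers outside the factors, Alpl and Klf2 were called higher and Zfp42 and Tfcp2l1 lower, while DESeq2 called 2 higher and 5 lower and an unadjusted p gave 2 and 4.

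Other genes with a profile like that of a factor were named by the root mean square difference of centred log2 CPM over the 4 libraries, among 8171 genes. The nearest were Kri1 for Pou5f1, Irak1 and Eif2s3x for Sox2, Safb2 and Stam2 for Nanog, Cacul1 and Septin11 for Sall4, Ago1 and Dkc1 for Lin28a, and Ldhb and Gstm1 for Utf1, at 0.004 to 0.042. The nearest to Pou5f1 is 1 of 324 genes within 0.1, and Lin28a and Utf1 had 48 and 46 such genes. With 4 libraries such likeness is common and is given as a description.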

How the data were processed

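The authors deposited raw read counts per gene and FPKM values for 4 libraries of E14 cells. The submitters' processing notes name CASAVA, HISAT2 2.0.5, featureCounts 1.5.0-p3 and mm10, while strand use is not given in the sources used here. The deposited FPKM are per gene length and scaled library size. The notes name mm10, but 2.76% of 52036 genes shared with GENCODE M21 (GRCm38) lie at the same position while 96.8% have the same span, so gene positions are given as deposited, with no build, and were not combined with GRCm38. Promoter windows come from RefSeq on GRCm38.p6.

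The count analysis used edgeR 4.0.16 in R 4.3.3 (filterByExpr, TMM normalization, quasi-likelihood test, KO against WT). A call required a difference of more than 1.5-fold and a p below 0.05 after Benjamini-Hochberg adjustment over all genes tested. Each KO line alone was compared with WT in a 3-group design on the same 18157 genes. Alternatives used DESeq2 1.42.0, limma 3.58.1 on FPKM, other filters and normalizations, a replicate block, removed chromosome medians, and each library left out. The edgeR fit of KO against WT was tested on simulated counts.

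The factors and gene lists were chosen with earlier results of these data known. Besides the factors, the text names up to 4 called genes of a list by adjusted p, the tested genes nearest to each factor, and the nearest profiles, and marks the rest. One gene that this rule names is not reported here. Intervals cover the spread between these libraries.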

Additional observations from a re-analysis of the deposited data

How the results depend on the processing

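The sign of each factor's log2 fold change held in 16 other fits, except for Sall4, which was at 0.25 without WT1. With each library left out in turn the log2 fold change ran from -0.56 to -0.30 for Pou5f1, -0.79 to -0.25 for Sox2, -0.35 to -0.07 for Nanog, -0.38 to 0.25 for Sall4, 0.36 to 0.96 for Lin28a and 0.19 to 0.73 for Utf1. The factors called higher were then 0 to 1 and those called lower 0 to 1, while 826 to 3571 genes were called higher and 821 to 3384 lower. All 4 libraries gave 1999 genes higher and 1946 lower. Without a library a group has 1 library, which is assumed to vary like the other group.

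One factor, Lin28a, was called higher with no filter on low counts, with a replicate block and at an unadjusted p. Libraries of the same number share only that number in the labels, and their deviations from the group means correlated at 0.35 across 18157 genes, which are not independent. With the replicate block 3128 genes were called higher and 2994 lower, and Lin28a was at 0.66 (adjusted p = 0.0165 by edgeR). FPKM with limma-trend gave 1220 higher and 1087 lower at a pseudocount of 1, 1223 and 1144 at 0.1, and 197 and 178 without a filter. An unadjusted p gave 3074 and 3090. The cause of these shifts was not tested. With 2 libraries per group, differences of the factors' size are within the intervals, and a p above the threshold does not show that levels were equal.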
